A study of Mus musculus with 2 samples.

Results

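The genes described here are the glucocorticoid receptor gene Nr3c1, the gene of the enzyme that regenerates its ligand, Hsd11b1, and 6 genes known to respond to the receptor, Fkbp5, Tsc22d3, Zbtb16, Klf9, Sgk1 and Errfi1. They are 8 of the 32286 features counted in 2 mouse single-cell libraries and were found by gene symbol. The list was chosen by the genes' known roles with measured values of these same libraries in view, among them the chase-to-pulse ratio of Zbtb16, so the ratios between the libraries describe the genes and support nothing about them. The 2 libraries hold bone marrow stromal cells from the endosteal surface of femur and tibia, sorted for bright tdTomato. Both groups were male mice of the genotype Adipoq-CreER;Ai9, in which the Adipoq promoter drives a tamoxifen-inducible Cre and Ai9 supplies a Cre-dependent tdTomato reporter; the labels also write the driver as Adipoq-CreERT2. Both groups received tamoxifen by gavage for 3 days at 8 weeks of age. Chase mice were harvested 4 weeks after tamoxifen and pulse mice 24 h after it, which also makes the chase mice the older ones. The sort collected 0.29% of all cells in the chase sample and 0.01% in the pulse sample. How many of the 4 mice of the series went into each library is not stated.

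Each group has 1 library, so no difference between chase and pulse has a replicate check, no test was possible, and every interval below is a 95% interval that covers counting error only. The chase library held 10046 barcodes with 82939659 unique molecular identifiers (UMIs, one per captured transcript) and the pulse library 10608 barcodes with 89009901 UMIs. After filtering, 8335 chase and 9212 pulse cells were kept, with medians of 7489 and 7772.5 UMIs per cell, and 52 barcode sequences occurred in both libraries. Cells were put into classes by marker genes, none of which is among the 8 genes. Levels are given as UMIs scaled to a class total of 1000000 (CPM), and since the kit reads transcript ends, these levels are compared between classes and libraries and not between genes.

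Glucocorticoids are steroid hormones released by the adrenal gland with a daily rhythm and under stress. They bind the receptor encoded by Nr3c1, which waits in the cytoplasm on a chaperone complex, moves to the nucleus and switches target genes on by binding paired AGAACA-like arms in DNA. Inside a cell the enzyme encoded by Hsd11b1 turns the inactive keto form of the hormone back into corticosterone, the main glucocorticoid of mice. In bone, an excess of glucocorticoid lowers bone formation and favours marrow fat, and marrow stromal cells are a known target of the hormone.

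The promoter sequences of RefSeq (build GRCm38.p6; 250 bases before to 50 after each annotated start) were searched for the receptor's motif in 14 windows of 6 of the 8 genes (all but Nr3c1 and Zbtb16). The full motif, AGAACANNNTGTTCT, reads the same on both strands and occurred in 3 of 32851 windows (0.00913%). One of the 3 is a promoter of Sgk1, the serum and glucocorticoid regulated kinase, on the plus strand, where the match begins 189 bases before the start. Another window shown is a promoter of Tsc22d3, on the minus strand, which holds a single arm of the motif. Capitals mark matches to the full motif or to a single arm, and each line runs 5′ to 3′.
Sgk1, chr10:21993640-21993939: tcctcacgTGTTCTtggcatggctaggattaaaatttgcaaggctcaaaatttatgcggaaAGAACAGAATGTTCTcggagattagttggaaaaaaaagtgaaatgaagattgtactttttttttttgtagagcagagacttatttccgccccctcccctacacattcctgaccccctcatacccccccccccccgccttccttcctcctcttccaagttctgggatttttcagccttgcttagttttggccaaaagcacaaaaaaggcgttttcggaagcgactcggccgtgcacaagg
Tsc22d3, chrX:140600473-140600772: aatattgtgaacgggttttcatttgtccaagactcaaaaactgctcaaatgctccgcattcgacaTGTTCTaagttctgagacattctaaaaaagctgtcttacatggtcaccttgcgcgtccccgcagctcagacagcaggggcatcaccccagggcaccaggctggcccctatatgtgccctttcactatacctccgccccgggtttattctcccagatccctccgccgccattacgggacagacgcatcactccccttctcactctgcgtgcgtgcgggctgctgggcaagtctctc

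A single arm, AGAACA or TGTTCT, is common, since 6233 of all windows (19.0%) hold one or more on either strand, and every full match also counts as such. Single arms occurred in 3 of the 6 windows of Sgk1 and 1 of the 3 windows of Tsc22d3. The windows of Hsd11b1, Fkbp5, Klf9 and Errfi1 held neither the full motif nor a single arm. A looser form, GNACANNNTGTNC, which includes every full match, occurred in 156 windows (0.475%), and Sgk1 was the only one of the 6 genes with it. A match is a description of letters and not of binding, and these windows leave out distant regulatory sequence.

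Marrow stromal cells were mainly Cxcl12-abundant reticular (CAR) cells, which support blood stem cells. Adipogenic CAR cells, gated by Adipoq, Lepr, Cxcl12, Kitl and other markers, numbered 3796 in the chase and 3900 in the pulse library. Osteogenic CAR cells, gated by Alpl, Wif1, Spp1 and other markers, numbered 438 and 603, and osteoblasts, gated by Bglap, Ibsp, Col1a1 and others, 325 and 448. Although the sort was for a stromal reporter, endothelial and blood classes were also present. The classes with at least 50 cells in each library were compared, 10 in all: these 3 stromal classes, endothelial cells (343 chase, 381 pulse), neutrophils (477 and 654), monocytes or macrophages (1329 and 1360), B cells (155 and 516), T or NK cells (314 and 437), erythroid cells (73 and 94) and blood progenitors (391 and 136). The 10 leading genes of each of these classes included at least 3 of its own markers. RNA that leaks from CAR cells into the droplets of other cells was gauged with Adipoq: its level in a class, multiplied by the ratio of a gene to Adipoq in adipogenic CAR cells of the same library, is the level that carry-over would bring if all Adipoq there had leaked in, called the carry-over ceiling below. The lower interval bound of 112 of 128 values outside the CAR classes lay above this ceiling, and of 104 when Cxcl12 was the gauge in place of Adipoq, which gives a higher ceiling in most classes.

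**Figure D1:**
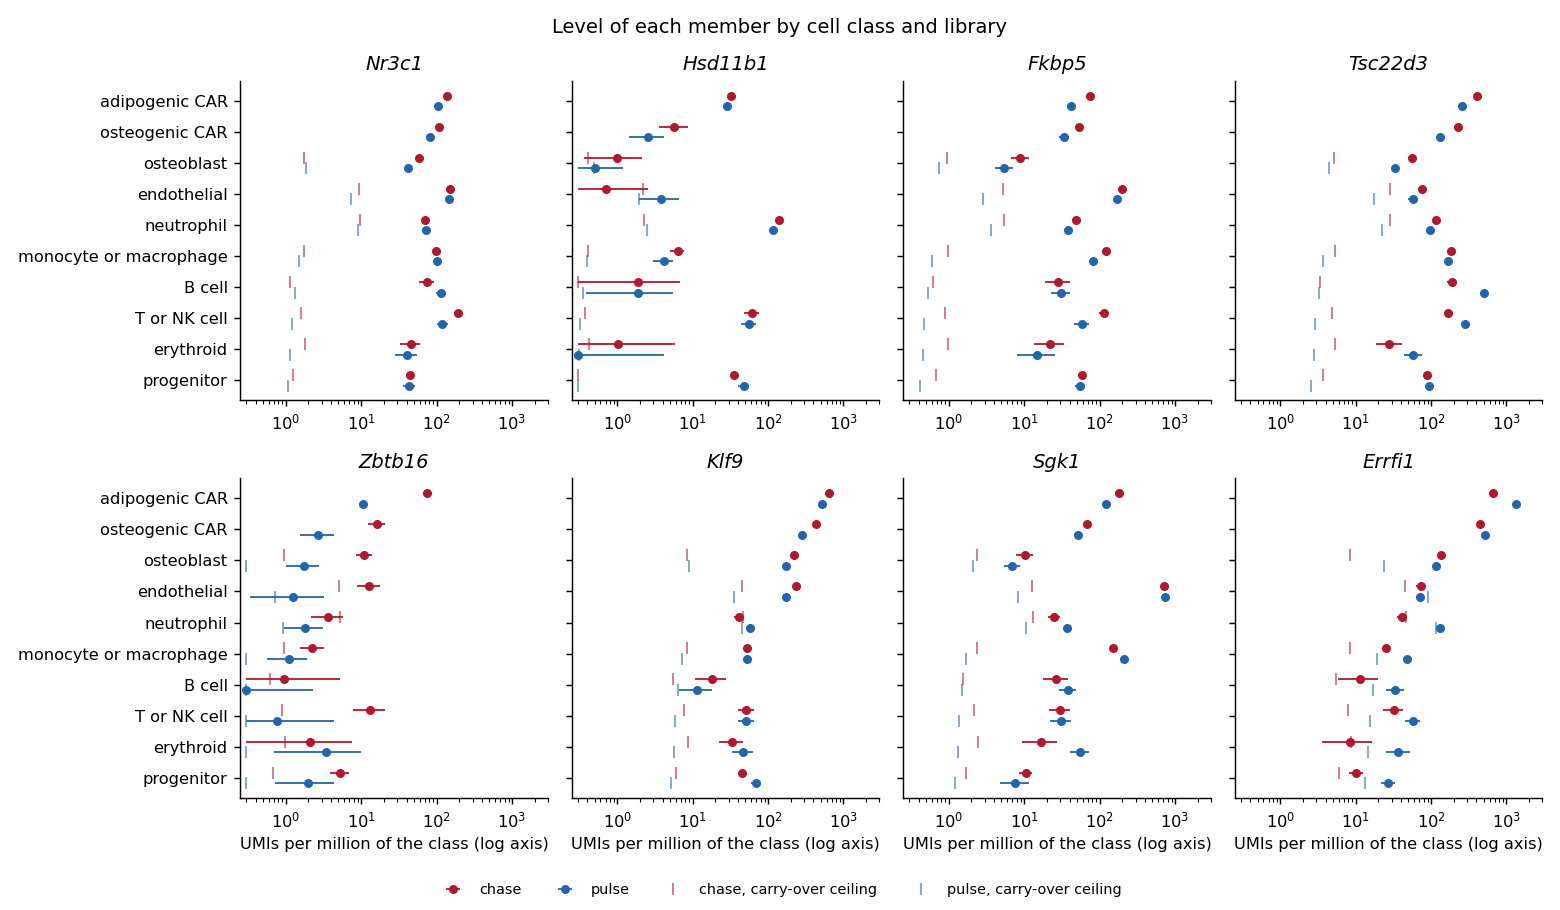
Level of each of the 8 genes by cell class and library, as CPM on a log axis, with chase in red above pulse in blue. Points carry 95% counting intervals, values under 0.3 are drawn at 0.3, and vertical ticks mark the carry-over ceiling. Nr3c1 lies within a narrow range in all classes, whereas the other genes spread more widely between classes, among them Hsd11b1, Zbtb16, Sgk1, Klf9 and Errfi1.

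The receptor itself was present in every class. In the chase library Nr3c1 was highest in T or NK cells at 192 CPM (169 to 217), followed by endothelial cells at 149 and adipogenic CAR cells at 136, whose intervals overlap each other. In the pulse library endothelial cells led at 146 CPM, and neighbouring classes from there down to monocytes or macrophages at 101 could not be separated by their intervals. Osteogenic CAR cells had 109 CPM in the chase and 82.9 in the pulse library. Osteoblasts (58.8 chase, 41.6 pulse), erythroid cells (45.6 and 40.1) and progenitors (44.1 and 43.1) held the lowest levels in both libraries. Over stroma, vessel and blood the receptor message thus ranged from 44.1 to 192 CPM in the chase and from 40.1 to 146 CPM in the pulse library.

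The hormone-regenerating enzyme was far more restricted. Hsd11b1 was highest in neutrophils, at 139 CPM (129 to 150) in the chase and 118 CPM (110 to 126) in the pulse library, against carry-over ceilings there of 2.28 and 2.46 CPM. T or NK cells came next at 60.6 and 55.6 CPM, then progenitors at 35.8 and 47.7 and adipogenic CAR cells at 32.0 and 28.3. This order was the same in both libraries, although the intervals of progenitors overlapped those of adipogenic CAR cells in the chase library and those of T or NK cells in the pulse library. In osteoblasts Hsd11b1 had only 6 chase and 5 pulse UMIs, with levels whose intervals included the carry-over ceiling. Among T or NK cells, those with a Cd3 or Trac UMI and no UMI of the NK genes Ncr1 or Klrb1c, 286 chase and 414 pulse cells, carried Hsd11b1 at 53.9 and 46.8 CPM. With every cell thinned to 2000 UMIs, Hsd11b1 was detected in 21.4% of chase neutrophils (17.7 to 25.5) and 19.3% of pulse neutrophils (16.3 to 22.6). In osteoblasts it was detected in 0 of 310 chase cells, which allows a share of up to 0.968%, and in 0 of 441 pulse cells, which allows up to 0.680%. These limits hold for cells with a UMI at the thinned depth and not for cells that express the gene.

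Fkbp5, a co-chaperone that lowers the receptor's affinity for hormone and is itself induced by it, was highest in endothelial cells at 200 CPM (184 to 217) in the chase and 169 CPM (155 to 184) in the pulse library. Its carry-over ceiling there was 5.18 and 2.86 CPM. Osteoblasts were lowest in both libraries, at 8.84 and 5.44 CPM. Sgk1, a kinase that promotes sodium transport and cell survival, had its peak in the same class, with 723 CPM (692 to 755) in chase and 732 CPM (703 to 762) in pulse endothelial cells. The next class was adipogenic CAR cells at 183 CPM in the chase library and monocytes or macrophages at 214 CPM in the pulse library. Osteoblasts held 10.2 and 6.98 CPM of Sgk1, among the lowest levels of any class with progenitors at 10.4 and 7.63.

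Zbtb16 and Klf9, both transcription factor genes, were highest in stroma. Zbtb16, which encodes the zinc finger protein PLZF, stood in adipogenic CAR cells at 74.2 CPM (70.9 to 77.6) in the chase and 10.5 CPM in the pulse library. Chase osteogenic CAR cells (16.3 CPM), T or NK cells (13.1), endothelial cells (12.7) and osteoblasts (11.0) followed, with overlapping intervals between neighbours. Klf9, a Krüppel-like factor induced by glucocorticoid and thyroid hormone, had 651 CPM in chase and 514 CPM in pulse adipogenic CAR cells, then 426 and 279 CPM in osteogenic CAR cells. Tsc22d3, which encodes the anti-inflammatory leucine zipper protein GILZ, was highest in adipogenic CAR cells of the chase library at 406 CPM (398 to 414), but in B cells of the pulse library at 507 CPM (473 to 543), where T or NK cells (283) also lay above adipogenic CAR cells (257). Errfi1, which encodes the EGF receptor inhibitor MIG6, was highest in adipogenic CAR cells (659 chase, 1347 pulse) and next in osteogenic CAR cells (442 and 516).

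The first comparison between the libraries was within CAR cells, 4234 in the chase and 4503 in the pulse library. A gene was counted as higher or lower if it differed by 1.5-fold or more with a counting interval that left out 1; genes with fewer than 50 UMIs in the 2 libraries together were not counted, and all 8 had more. Of the 8 genes, 4 were higher in the chase library and 1 was lower, where 6.93% of the 13307 genes tested were higher and 6.79% were lower. The median log2 chase-to-pulse ratio was 0.49 over the 8 genes and -0.02 over all genes tested. The 4 higher genes were Zbtb16, Fkbp5, Tsc22d3 and Sgk1, and the lower gene was Errfi1.

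Zbtb16 stood apart. It had 1986 UMIs in chase and 362 UMIs in pulse CAR cells, or 66.7 and 9.28 CPM, a ratio of 7.19 (6.42 to 8.06). In cells thinned to 2000 UMIs it was found in 12.5% (11.5 to 13.6) of 3955 chase and 1.90% (1.51 to 2.35) of 4314 pulse CAR cells, and 3 UMIs or more were seen in 0.303% of the chase cells and in none of the pulse cells. B cells, taken as a class that lacks the gene, had it in 0 of 143 chase cells, which allows up to 2.1%, and 0 of 305 pulse cells, which allows up to 0.984%. The CAR share lay above the limit from B cells of the same library in both libraries. In the pulse library this depends on the class taken as background. Pulse neutrophils had Zbtb16 in 0.643% of thinned cells (0.175 to 1.64), an interval that overlaps that of pulse CAR cells.

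Errfi1 moved the other way. It had 18773 UMIs in chase and 47633 UMIs in pulse CAR cells, or 630 and 1221 CPM, a level 1.94-fold lower in the chase library (1.90 to 1.97). In thinned cells it was found in 59.6% of chase and 78.2% of pulse CAR cells. Errfi1 is the only one of the 8 with a lower level in chase CAR cells. It is known to be induced also by growth factor signalling and by stress, and whether either has a part here was not tested.

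Fkbp5 had 72.0 CPM in chase and 40.6 CPM in pulse CAR cells (2145 and 1583 UMIs), a ratio of 1.78 (1.66 to 1.90). Tsc22d3 had 383 and 238 CPM (11392 and 9269 UMIs), a ratio of 1.61 (1.57 to 1.66). Sgk1 had 168 and 110 CPM (4997 and 4297 UMIs), a ratio of 1.52 (1.46 to 1.59). Sgk1 lay nearest to the threshold of 1.5 and fell under it when mitochondrial and ribosomal protein genes were left out of the class total, with a log2 ratio of 0.57. The shares of thinned CAR cells with a UMI of these genes were 12.7% in chase and 8.41% in pulse cells for Fkbp5, 48.3% and 35.2% for Tsc22d3, and 24.8% and 15.8% for Sgk1.

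The receptor, the enzyme and Klf9 stayed under the threshold. Nr3c1 had 132 CPM in chase and 103 CPM in pulse CAR cells, a ratio of 1.29 (1.23 to 1.35). Klf9 had 622 and 478 CPM, a ratio of 1.30 (1.27 to 1.33). Hsd11b1 had 28.6 and 24.4 CPM, a ratio of 1.17 (1.07 to 1.29), and its share of thinned cells was 3.74% in chase and 3.82% in pulse CAR cells.

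**Figure D2:**
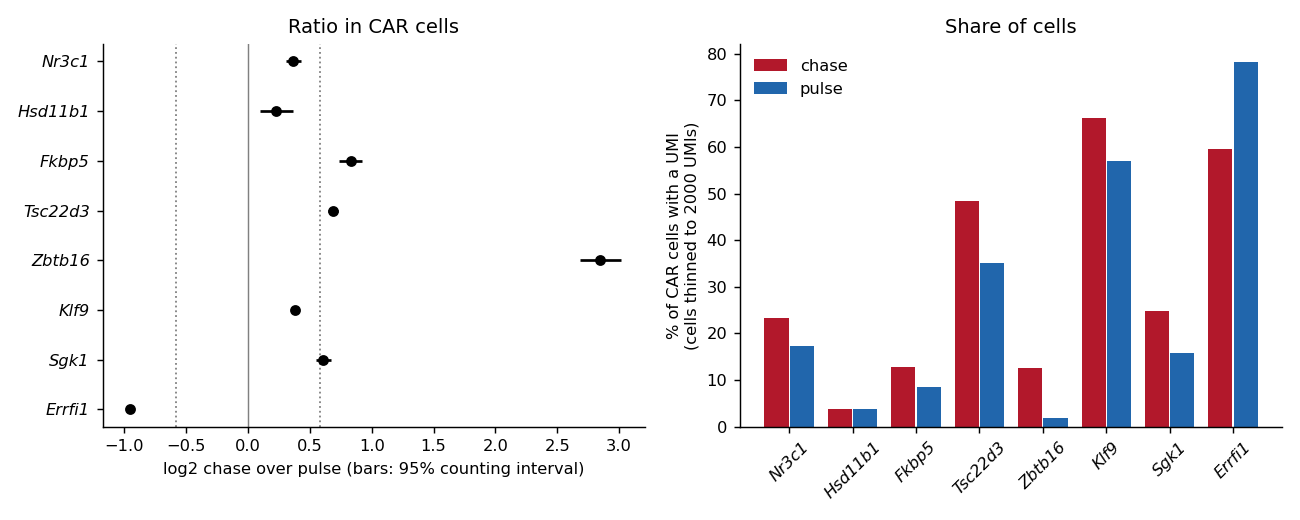
Left, log2 chase-to-pulse ratio of each of the 8 genes in CAR cells with 95% counting intervals, with dotted lines at 1.5-fold either way. Right, percent of CAR cells with at least 1 UMI of the gene after thinning each cell to 2000 UMIs, with chase (red) left of pulse (blue). Zbtb16 has the largest ratio and the largest relative difference in share, and Errfi1 alone lies below zero.

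Measures that moved with the libraries in CAR cells stand beside these ratios. Immediate early genes, which respond within minutes to stimulation and tissue handling, summed to 28807 CPM in chase and 20983 CPM in pulse CAR cells. Ribosomal protein genes summed to 80022 CPM in chase and 101421 CPM in pulse, and mitochondrial genes to 36222 and 35135 CPM. Of the markers of other cells, the 8 neutrophil markers summed to 547 and 849 CPM the 8 erythroid markers to 285 and 163 CPM and the 8 osteoblast markers to 5498 and 3798 CPM, with none of these markers at 0. In adipogenic CAR cells alone the osteoblast markers summed to 4627 CPM in chase and 2651 CPM in pulse. Whether any of these has a part in the ratios was not tested. Harvest time, age, sorted share and library differ together between the groups and cannot be told apart.

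The adipogenic CAR cells of the 2 libraries fell largely into different clusters. When both libraries were clustered together, 1 cluster held 2038 chase and 75 pulse CAR cells, and another held 62 chase and 1460 pulse CAR cells. Zbtb16 was higher in chase cells in each of the 6 clusters with at least 50 CAR cells from each library, with ratios from 4.23 (2.69 to 6.40) to 12.4 (5.26 to 38.5). The highest ratio rests on 5 pulse UMIs, in a cluster led by the erythroid markers Hba-a1, Hbb-bt, Hbb-bs and Hba-a2. In the cluster of 2038 and 75 cells Zbtb16 had 7 pulse UMIs. Fkbp5 had ratios from 1.62 to 1.83 in 5 of the 6 and 1.09 (0.791 to 1.54) in the cluster of 2038 and 75 cells. Tsc22d3 had ratios from 1.55 to 1.87 in 3 of the 6, 1.32 and 1.23 in 2 others and 1.00 (0.883 to 1.14) in the cluster of 2038 and 75 cells. Sgk1 reached 1.5-fold in 2 of the 6, at 1.67 and 2.21, with 1.42 to 1.46 in 3 others and 1.15 (0.941 to 1.42) in the cluster of 2038 and 75 cells. The ratios of Fkbp5, Tsc22d3 and Sgk1 over all CAR cells were thus not met within each cluster, and in the largest chase cluster the intervals of all 3 included 1. Errfi1 was lower in all 6, with ratios from 0.348 to 0.875. The clusters were built from expression that includes some of these genes, so these values are descriptions.

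Hsd11b1 was uneven among CAR cells. One cluster of 331 chase and 624 pulse cells, led by Cfd, Fabp4, Hsd11b1, Kit and Scd1, made up 10.9% of CAR cells and held 65.6% of their Hsd11b1 UMIs. Fabp4 and Scd1 are genes of fatty acid handling and Cfd encodes the fat cell product adipsin; Hsd11b1 itself helped to define the cluster. Its level there was 232 CPM in chase and 123 CPM in pulse cells, a ratio of 1.89 (1.68 to 2.12), against 1.17 over all CAR cells. In cells split by a single UMI of Mrap, an accessory protein of melanocortin receptors that was chosen after values were seen, Hsd11b1 stood at 109 CPM in chase and 74.1 CPM in pulse cells with Mrap, and at 16.2 and 14.5 CPM in cells without it. In a split by a UMI of Cfd, Hsd11b1 stood at 124 CPM in 64 chase and 161 CPM in 74 pulse cells with Cfd. The interval of that ratio, 0.771 (0.559 to 1.06), includes 1, so its direction is not settled. Hsd11b1 was higher in cells with either marker than without it in both libraries. Among cells with the marker, chase exceeded pulse beyond counting error for Mrap, at 1.47 (1.29 to 1.68), and not for Cfd.

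Osteogenic CAR cells carried less of every one of the 8 genes than adipogenic CAR cells in both libraries. Of the 8, 5 were counted as lower in osteogenic cells of the chase library, where 13.5% of all genes tested were lower and 11.3% higher. In the pulse library 6 were lower, where 12.4% of genes were lower and 11.1% higher. None of the 8 was counted as higher in either library. Hsd11b1 had the largest difference, at 5.69 CPM in osteogenic and 32.0 CPM in adipogenic CAR cells of the chase library, 5.63-fold lower (3.69 to 9.03). In the pulse library it had 2.53 and 28.3 CPM, 11.2-fold lower (6.75 to 20.1). Zbtb16 was 4.56-fold lower (3.55 to 5.96) in osteogenic cells of the chase library and 3.88-fold lower (2.35 to 6.86) in those of the pulse library. Sgk1, Tsc22d3 and Klf9 were 2.67-fold, 1.80-fold and 1.53-fold lower in the chase library, and 2.31-fold, 1.97-fold and 1.84-fold lower in the pulse library. Errfi1 had 442 CPM in osteogenic and 659 CPM in adipogenic chase cells, just under the threshold at 1.49-fold lower, and 516 and 1347 CPM in pulse cells, 2.61-fold lower. Nr3c1 and Fkbp5 differed least, at 1.24-fold and 1.38-fold lower in the chase library and 1.28-fold and 1.23-fold lower in the pulse library. The receptor gene therefore varied less between these stromal classes than the enzyme that supplies its ligand.

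**Figure D3:**
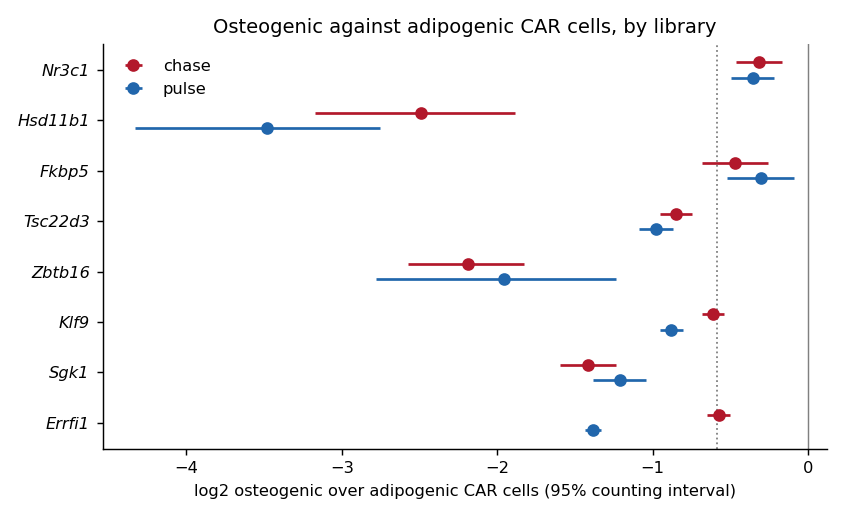
Log2 ratio of osteogenic over adipogenic CAR cells for each of the 8 genes in the chase (red) and pulse (blue) libraries, with 95% counting intervals and a dotted line at 1.5-fold lower. All 16 points lie below zero, and Hsd11b1 and Zbtb16 lie farthest from it.

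Osteogenic CAR cells, part of the CAR cells above, and osteoblasts gave chase-to-pulse ratios like those of all CAR cells for Zbtb16, Fkbp5 and Tsc22d3. In osteogenic CAR cells 7 of the 8 genes had 50 UMIs or more, and 4 were higher in the chase library and 0 lower (5.88% of genes higher, 6.38% lower). In osteoblasts 7 were measured, with 3 higher and 0 lower (6.31% of genes higher, 3.74% lower). In adipogenic CAR cells alone 4 of 8 were higher and 1 lower (6.97% higher, 6.92% lower). Zbtb16 had 63 chase and 16 pulse UMIs in osteogenic CAR cells, a ratio of 6.04 (3.45 to 11.2), and 67 and 17 UMIs in osteoblasts, a ratio of 6.28 (3.65 to 11.4). Its osteoblast level of 11.0 CPM in the chase library stood against a carry-over ceiling of 0.957 CPM. No ceiling was applied to osteogenic CAR cells. The Cxcl12 gauge would put it there at 20.9 CPM in chase and 2.66 CPM in pulse, beside Zbtb16 levels of 16.3 and 2.70 CPM. CAR cells hold Cxcl12 themselves, and the part of adipogenic RNA in the osteogenic ratio was not tested. Fkbp5 had ratios of 1.59 in osteogenic CAR cells (54.0 chase, 33.9 pulse CPM) and 1.62 in osteoblasts (8.84 and 5.44 CPM). Tsc22d3 had ratios of 1.73 (225 and 130 CPM) and 1.65 (55.5 and 33.7 CPM). The osteoblast counts of both genes were near the threshold: Fkbp5 was no longer counted under a stricter gate (log2 ratio 0.54) and Tsc22d3 no longer with classes taken from clusters (0.58). Klf9 had 426 and 279 CPM in osteogenic CAR cells, a ratio of 1.53 (1.42 to 1.63), and 219 and 174 CPM in osteoblasts, a ratio of 1.25. The osteogenic ratio of Klf9 fell under the threshold without mitochondrial and ribosomal protein genes (log2 ratio 0.57) and as a mean of per-cell CPM (0.55). Errfi1 was not counted as lower in either class, with 442 chase and 516 pulse CPM in osteogenic CAR cells and 136 and 118 CPM in osteoblasts.

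In endothelial cells, which had the most Sgk1 and Fkbp5, 0 of 6 genes with enough UMIs were counted as higher or lower. Over all genes tested there 3.95% were higher and 2.60% lower, so a count of 0 among 6 is near the common share. Sgk1 had a ratio of 0.987 (0.930 to 1.05), Fkbp5 1.18 (1.05 to 1.33) and Nr3c1 1.03 (0.897 to 1.17). Klf9 had 1.38 (1.23 to 1.55), Tsc22d3 1.34 (1.09 to 1.64) and Errfi1 1.02 (0.845 to 1.24). With Cxcl12 as the gauge, the pulse Errfi1 level of 71.7 CPM did not clear its carry-over ceiling of 105 CPM. The chase level of 73.5 CPM lay above its ceiling of 46.2 CPM. The pulse level thus cannot be told apart from carry-over, and the Errfi1 ratio does not show an unchanged endothelial level. Zbtb16 had 36 UMIs in chase and 4 UMIs in pulse endothelial cells, too few to be counted, with a ratio of 10.2 (3.64 to 39.3). Its chase level of 12.7 CPM lay above the carry-over ceiling of 5.15 CPM, while the pulse level did not clear its own.

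Among myeloid cells, Errfi1 was counted as lower in chase neutrophils and in chase monocytes or macrophages. In neutrophils 7 genes were measured, 0 higher and 1 lower (4.33% of genes higher, 11% lower). Errfi1 had 41.2 CPM in chase and 131 CPM in pulse neutrophils, 3.19-fold lower (2.73 to 3.73), but the chase level was within its carry-over ceiling of 47.0 CPM and the pulse ceiling was 117 CPM. With Cxcl12 as the gauge the ceilings were 45 CPM in chase and 136 CPM in pulse, and neither level cleared its own. Neutrophil Errfi1 thus cannot be told apart from RNA carried over from CAR cells, in which Errfi1 was itself lower in the chase library. In monocytes or macrophages 7 genes were measured, with 1 higher and 1 lower (3.79% of genes higher, 4.34% lower). The higher one was Hsd11b1, at 6.30 CPM in chase and 4.13 CPM in pulse cells, a ratio of 1.53 (1.05 to 2.24), which was lost under a stricter gate (log2 ratio 0.01). Errfi1 had 25.6 and 48.5 CPM there, 1.90-fold lower, against ceilings of 8.52 and 19.1 CPM (10.9 and 28.7 CPM with Cxcl12). Fkbp5 had 123 CPM in chase and 82.8 CPM in pulse monocytes or macrophages, a ratio of 1.48, just under the threshold, and Sgk1 had 149 and 214 CPM, 1.43-fold lower. Some alternatives put both past it. Fkbp5 was counted as higher when ratios were centred on all genes (log2 ratio 0.63) and under a stricter gate (0.61). Sgk1 was counted as lower with classes taken from clusters (-0.675).

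Lymphoid classes went against stroma for Tsc22d3. In B cells 5 genes were measured, with 0 higher and 3 lower (11.3% of genes higher, 17.4% lower). Tsc22d3 had 190 CPM in chase and 507 CPM in pulse B cells, 2.67-fold lower (2.28 to 3.13). Nr3c1 was 1.55-fold lower (73.8 chase, 114 pulse CPM) and Errfi1 2.93-fold lower (11.3 and 33.3 CPM, with 12 and 53 UMIs), where the chase level did not clear the Cxcl12 ceiling of 7.69 CPM. The lower Nr3c1 of B cells fell under the threshold when ratios were centred on all genes (log2 ratio -0.55), under a stricter gate (-0.58) and as a mean of per-cell CPM (-0.53). The stage of the B cells also differed between the libraries: the pre-B cell genes Vpreb1 and Igll1 stood at 583 and 412 CPM in the chase and 195 and 156 CPM in the pulse library, and the mature B cell genes Ighd and Ms4a1 at 132 and 263 CPM in the chase and 387 and 1232 CPM in the pulse library. Whether that difference in stage has a part in the Tsc22d3 ratio was not tested. In T or NK cells 7 genes were measured, with 2 higher and 2 lower (8.95% of genes higher, 6.48% lower). Tsc22d3 had 169 chase and 283 pulse CPM, 1.68-fold lower (1.42 to 1.99). Fkbp5 was higher in the same cells, with 115 CPM in chase and 58.7 CPM in pulse, a ratio of 1.95 (1.47 to 2.60), as did Nr3c1 with 192 and 120 CPM, a ratio of 1.60 (1.31 to 1.97). The Nr3c1 ratio fell under the threshold without mitochondrial and ribosomal protein genes in the class total (log2 ratio 0.55). Zbtb16, which in T lineage cells marks innate-like types, had 18 UMIs in chase and 1 UMI in pulse T or NK cells, too few to be counted, with a ratio of 17 (2.68 to 708). Fkbp5 and Tsc22d3, both textbook targets of the receptor, thus had ratios on opposite sides of 1 in T or NK cells and on the same side in all 3 stromal classes. The T or NK cells of the libraries also differed otherwise. Ifng and Il2rb were among the leading genes only in chase, and Bcl11b and Cd28 only in pulse, all named after values were seen. Median UMIs were 3826.5 in chase and 2637 in pulse cells. Whether these differences have a part in the T or NK ratios was not tested.

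Erythroid cells were few. Of 4 genes measured, 0 were higher and 2 lower (6.82% of genes higher, 10.9% lower): Tsc22d3, with 27 chase and 51 pulse UMIs, was 2.09-fold lower and Sgk1, with 16 and 48 UMIs, 3.32-fold lower (1.85 to 6.26). Under a stricter gate the log2 ratios were -0.84 for Tsc22d3 and -1.25 for Sgk1, still past 1.5-fold but no longer counted, and with classes taken from clusters they were -0.40 and -0.135. Markers of other cells moved with the library in this class: neutrophil markers summed to 278 CPM in chase and 1921 CPM in pulse erythroid cells, and monocyte or macrophage markers to 816 and 1911 CPM, and their part in the ratios was not tested. In progenitors all 8 were measured, with 1 higher and 2 lower (2.86% of genes higher, 2.03% lower). Zbtb16 had 49 chase and 6 pulse UMIs there, a ratio of 2.65 (1.13 to 7.57), Klf9 had 45.5 and 68.3 CPM, 1.5-fold lower, and Errfi1 had 10.2 and 27.2 CPM, 2.66-fold lower (1.96 to 3.61). The Zbtb16 count was lost under a stricter gate (log2 ratio 1.02), and the Klf9 count under 4 alternatives (log2 ratios -0.59 to -0.50). Neutrophil markers summed to 9513 CPM in chase and 20154 CPM in pulse progenitors, and their part in these ratios was not tested. Zbtb16 passed the minimum of 50 UMIs largely through its chase cells, so the number of classes in which it was counted as higher, 4 of the 4 measured, follows in part from the minimum. Over the 10 classes Fkbp5 was higher in 4 of 9 and lower in none, and Errfi1 lower in 6 of 9 and higher in none. How many of all genes reached such counts over classes was not computed, so these are not shown to be particular to Fkbp5 or Errfi1. Not all of these counts are firm. The Fkbp5 count of osteoblasts was lost under a stricter gate. For Errfi1, neutrophil levels cannot be told apart from carry-over, and the chase B cell level did not clear the Cxcl12 ceiling. Its T or NK count rests on 44 chase and 74 pulse UMIs (32.1 and 57.2 CPM). All classes of a library share its preparation and are not replicates.

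**Figure D4:**
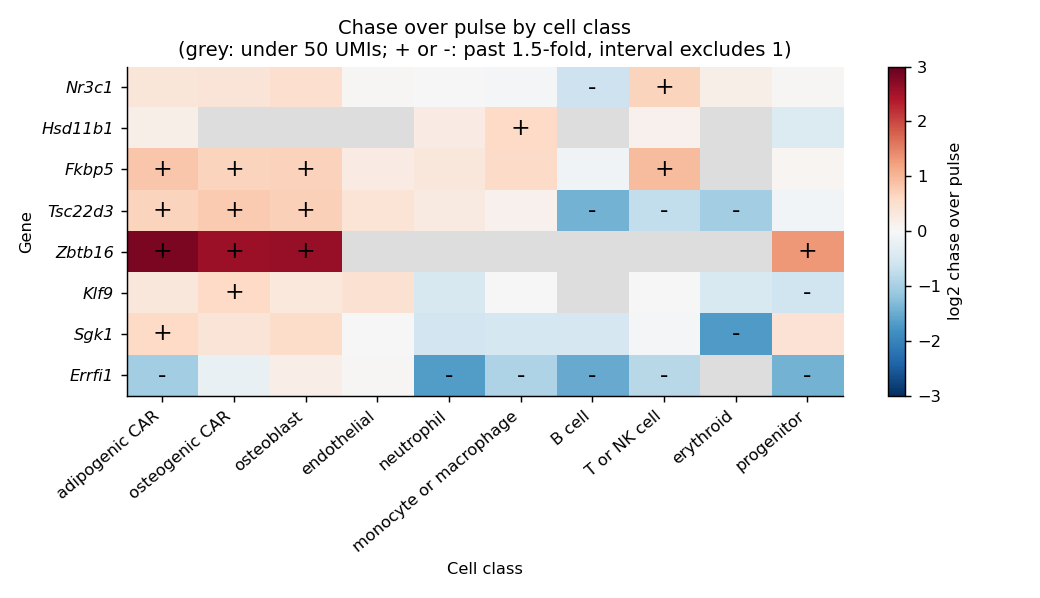
Log2 chase-to-pulse ratio of each of the 8 genes (rows) in each of the 10 classes (columns), with red for higher and blue for lower in chase and grey for under 50 UMIs over both libraries. A plus or minus marks ratios past 1.5-fold whose interval excludes 1. Under the main settings Zbtb16, Fkbp5 and Tsc22d3 are marked plus in all 3 stromal classes, and Tsc22d3 is marked minus in B, T or NK and erythroid cells.

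Other genes of the pathway were described in CAR cells from lists drawn up with earlier results known; the counts stand against 6.93% higher and 6.79% lower over all genes tested in CAR cells. None of the 16 genes of receptor chaperones and coregulators was counted as higher or lower, and their median log2 ratio was -0.05. Hsp90aa1, the inducible chaperone that holds the receptor ready for hormone, had 316 CPM in chase and 421 CPM in pulse CAR cells, a ratio of 0.75, and the coactivator Ncoa2 had 48.6 and 35.4 CPM, a ratio of 1.37. Among 9 genes of corticosteroid metabolism and transport with the related mineralocorticoid receptor, 7 were measured, with 1 higher and 2 lower, and the median log2 ratio was 0.25 while the mean was -0.15. The 3 counted genes, named after their values were seen, were the mineralocorticoid receptor gene Nr3c2, at 8.40 chase and 3.41 pulse CPM, a ratio of 2.46 (1.99 to 3.06), the hormone-inactivating enzyme gene Hsd11b2, at 1.71 and 8.00 CPM, 4.67-fold lower, and the efflux pump gene Abcb1a, at 2.72 and 6.30 CPM, 2.32-fold lower. H6pd, which makes the cofactor for the enzyme of Hsd11b1, had 55.4 and 46.7 CPM, a ratio of 1.19.

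Of 26 further genes known to be induced by glucocorticoid, 25 were measured, with 9 higher, 1 lower and a median log2 ratio of 0.29. The metallothionein genes Mt2 and Mt1, which bind zinc and copper, had ratios of 4.13 (512 chase, 124 pulse CPM) and 2.43 (1650 and 679 CPM). The transcriptional repressor Bcl6 had a ratio of 3.49 (77.6 and 22.2 CPM) and Txnip, an inhibitor of thioredoxin, 2.07 (334 and 161 CPM). Of 15 genes known to be repressed by glucocorticoid, 14 were measured, and 8 were higher, 1 lower, with a median of 0.67. Those with the largest ratios were the inflammatory genes Cxcl1, at 146 chase and 26.3 pulse CPM (ratio 5.55), Ccl2, at 101 and 28.1 CPM (3.60), and the adhesion molecule Icam1, at 240 and 70.4 CPM (3.40). Induced and repressed genes thus both had medians above the -0.02 of all genes. Of 20 immediate early genes, 7 were higher and 1 lower, with a median of 0.45; Ier3 had 442 chase and 185 pulse CPM and Atf3 115 and 212 CPM. Of 18 circadian clock genes, 17 were measured, with 10 higher, 3 lower and a median of 0.81. The clock outputs Dbp and Hlf had ratios of 4.26 (104 chase, 24.3 pulse CPM) and 2.25 (23.6 and 10.5 CPM), and Per2 had 2.68 (24.2 and 9.02 CPM). The labels do not give the hour of harvest.

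The genes whose levels followed each of the 8 most closely were ranked by Pearson's r of log2(CPM + 5) over 20 values, 10 classes in each of 2 libraries, which share libraries and depth. Ghr, the growth hormone receptor gene, was closest to Errfi1 (r 0.971), and Sh3d19 to Klf9 (0.949). Ddx3x was closest to Sgk1 (0.955) and the coactivator gene Crebbp to Nr3c1 (0.928). Lpcat4 was closest to Hsd11b1 (0.905), Tnip1 to Fkbp5 (0.898), Man2a2 to Tsc22d3 (0.863) and Angptl1 to Zbtb16 (0.848). Among the 8 themselves, Klf9 and Errfi1 were most alike (0.867), and Hsd11b1 and Sgk1 least (-0.21).

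The genes lie on separate chromosomes in mm10 (GENCODE vM21). Nr3c1 lies on the minus strand of chr18:39410545-39519421 and Hsd11b1 on the minus strand of chr1:193221634-193264075. Fkbp5 lies on the minus strand of chr17:28399094-28517527, Tsc22d3 on the minus strand of chrX:140539528-140600659 and Zbtb16 on the minus strand of chr9:48654297-48836222. Klf9 lies on the plus strand of chr19:23141226-23168134, Sgk1 on the plus strand of chr10:21882184-21999903 and Errfi1 on the plus strand of chr4:150853919-150868892.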

How the data were processed

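The authors' deposited tables give whole-number UMI counts for every gene in every barcode, without normalisation. Per the labels' protocols, the 10x 3 prime kit was of version 3.1. The matrices come from Cell Ranger, version 6.0.2 per the file headers and 2.1.1 per the submitters' processing notes, which also give the build as mm10; which version applies is unsettled, and no annotation release is stated.

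Barcodes needed 500 genes, 1000 UMIs and a mitochondrial share below 10% to be kept (8445 chase and 9390 pulse cells). Scrublet in scanpy 1.11.5, run per library, removed 110 chase (1.30%) and 178 pulse cells (1.90%). A cell's score for each of 19 classes was the mean over its markers (141 in all) of the log-scaled level divided by that of the top 100 cells. The class with the highest score was taken if the score reached 0.25 and no class of another lineage exceeded 0.75 of it; 492 chase and 533 pulse cells had no class. These gate limits were set with the data in view. The 8 genes, the markers and the gene lists were chosen with earlier results of these data known. Clusters (Leiden, leidenalg 0.10.2, resolution 1, 2000 variable genes, 30 components, 15 neighbours) were used only as an alternative and a description.

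UMIs were summed per class and library and divided by the class total. Levels carry exact Poisson intervals, shares exact Clopper-Pearson intervals and ratios exact intervals conditional on the total (scipy 1.17.1), all covering counting error only; log2 ratios use a prior count of 0.5. A count of 0 is set against 3 counts. For shares this is a 1-sided limit that lies under the upper Clopper-Pearson bound. For Hsd11b1 in chase osteoblasts that bound is 1.18%, against the limit of 0.968% printed above. Shares were taken after thinning to 2000 UMIs, leaving out shallower cells (279 chase and 189 pulse CAR cells). The count step was run on simulated Poisson counts, the model that the intervals themselves assume. That run checks the calculation only and says nothing of the spread between libraries. Genes named are the 8, up to 4 per list with the largest ratio and at least 20 CPM, and the 3 with the most similar pattern for each of the 8, of which the closest is printed. Markers are named as such. Other names lie outside this rule, and not all are marked in the text. They include Nr3c2, Hsd11b2, Abcb1a, Mrap, Cfd, Vpreb1, Igll1, Ighd and leading genes of a CAR cluster and of T or NK cells.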

Additional observations from a re-analysis of the deposited data

Results flagged for a closer look

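For 4 of the 8 genes, chase and pulse differed in opposite directions in different cell classes, each past 1.5-fold with an interval that excludes 1. The share of all genes with such opposite counts was not computed, so the number is not shown to be particular to these genes. In B cells alone 11.3% of all genes tested were higher and 17.4% lower. With 1 library per group the difference between classes was not tested, and the values below are log2 chase-to-pulse ratios. Tsc22d3 was higher in chase adipogenic CAR cells, osteogenic CAR cells and osteoblasts and lower in chase B cells (-1.41), T or NK cells and erythroid cells; the osteoblast count was lost with classes from clusters (0.58), and the erythroid count there and under a stricter gate. Nr3c1 was higher in chase T or NK cells and lower in chase B cells (-0.63), but the T or NK count was lost under 1 alternative (0.55) and the B cell count under 3 (-0.58 to -0.53). Klf9 was higher in chase osteogenic CAR cells and lower in chase progenitors (-0.59), but the osteogenic count was lost under 2 alternatives (0.55 and 0.57) and the progenitor count under 4 (-0.59 to -0.50), so neither side is firm. Sgk1 was higher in chase adipogenic CAR cells and lower in chase erythroid cells (-1.70), which rest on 16 chase and 48 pulse UMIs; the adipogenic count was lost under 1 alternative (0.57) and the erythroid count under 2 (-1.25 and -0.135).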

How the results depend on the processing

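The alternatives covered the gate, the cell filter, doublets, the class total, centring on the median of all genes, the minimum count, per-cell means and classes taken from clusters; a setting without barcodes found in both libraries was added after the data were seen. In CAR cells none of the 8 genes changed direction. The log2 ratio ranged from 2.81 to 2.87 for Zbtb16, 0.78 to 0.85 for Fkbp5, 0.65 to 0.71 for Tsc22d3, 0.57 to 0.63 for Sgk1 and -1.0 to -0.93 for Errfi1, and Sgk1 lost its count with a class total without mitochondrial and ribosomal protein genes. With Cxcl12 in place of Adipoq as the gauge of carry-over, 104 of 128 values outside CAR cells cleared the ceiling, against 112. Over single genes and classes 24 calls were gained, 21 were lost and 923 kept their side of the threshold. Among the lost, with classes from clusters the erythroid log2 ratios were -0.40 for Tsc22d3 and -0.135 for Sgk1. Under a stricter gate the Hsd11b1 ratio of monocytes or macrophages was 0.01. The gained calls included a lower Sgk1 in chase neutrophils with doublets kept (-0.71) and with no cell filter (-0.62). They also included a higher Fkbp5 and a lower Sgk1 in chase monocytes or macrophages. No paired analysis was possible because each group has 1 library, and for the same reason no replicate could be left out.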
